A study of Gallus gallus with 20 samples.

Results

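Organic raising was compared with conventional raising in the liver of KRC chickens, a slow-growing type, by RNA sequencing. The comparison took every library the sample titles name as liver, 5 organic and 5 conventional, which are 10 of the 20 libraries of the study; the other 10 are breast muscle. Per the labels, mixed-sex chicks entered the trial at 1 day old, 125 in each system, in 5 indoor pens of 25 birds at 5 birds per m2. Organic birds ate feed made of organic raw materials and from day 21 could also use an outdoor pasture of Ruzi grass at 4 birds per m2. Conventional birds ate commercial feed and stayed indoors. Both groups shared 1 poultry house with free access to feed and water, and were slaughtered at 91 days of age. Since feed and pasture differed together, their effects cannot be told apart. The pen, sex and fasting state of each sampled bird were not given in the sources used here, so p-values treat these 10 livers as independent. For single genes they rest on a spread between livers that is moderated across genes.

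The liver of a bird makes most of the body's new fat, unlike in mammals, where adipose tissue shares that work. It turns citrate into acetyl-CoA and on into fatty acids and cholesterol, packs them into lipoproteins, stores glycogen, and secretes albumin, fibrinogen and complement into blood. In chickens the enzymes of fat synthesis follow feeding, insulin and thyroid hormone, and liver cells also answer interferon with a set of antiviral proteins.

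The livers held 14065269 to 15175691 counts each, apart from organic replicate 1 with 20488526. The mitochondrial genome took 9.06 ± 3.14% of counts in organic and 8.03 ± 0.887% in conventional livers (SD, n = 5 each; exact two-sided permutation p = 0.635), with the highest share, 14.2%, in organic replicate 4. Albumin, ALB, was the most abundant transcript per length, at 44055 ± 12881 FPKM in organic and 40780.0 ± 5939 FPKM in conventional livers (SD, n = 5 each). The 13 hepatocyte markers that were measured all passed the filter on low counts. Their log2 fold changes of organic over conventional livers ran from -1.09 for CPS1 to 0.52 for APOA1. APOA1 stood at 8116 to 16289 CPM in organic and 5811 to 10677 CPM in conventional livers. Of the 10 skeletal muscle fibre markers that were measured 2 passed the filter, and the 10 summed to 1.45 to 2.98 CPM in organic livers and 1.07 to 7.46 CPM in conventional livers. On the first principal component, which held 21.5% of the variance, organic replicates 1, 2 and 3 were at 56, 30.1 and 12.5. Organic replicates 4 and 5, at -3.19 and -27.3, lay among the conventional livers at -29.1 to 5.06.

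Of 27170 genes in the table, 13186 passed the filter on low counts and were tested with edgeR's quasi-likelihood test. None, 0%, had a Benjamini-Hochberg adjusted p under 0.05, and the smallest adjusted p from edgeR was 0.493. An unadjusted p under 0.05 was reached by 997 genes, 7.56% of those tested, of which 473 (3.59%) were higher and 524 (3.97%) lower in organic livers. Leaving out organic replicate 5 gave 1547 such genes, of which 837 were among the 997. All 5 organic livers lay above all 5 conventional livers for 74 genes, 0.561%, and below them for 86 genes, 0.652%. DESeq2 gave an adjusted p to 7556 genes and called 28 of them at 0.05, 0.371%, with 19 higher (0.251%) and 9 lower (0.119%) in organic livers. All directions below are log2 fold changes of organic over conventional livers with an SE, and none of these single genes passed edgeR's adjusted threshold. That SE was worked back as the absolute log2 fold change over the square root of edgeR's F statistic. The median over all genes was -0.014, with quartiles of -0.20 and 0.15.

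**Figure D1:**
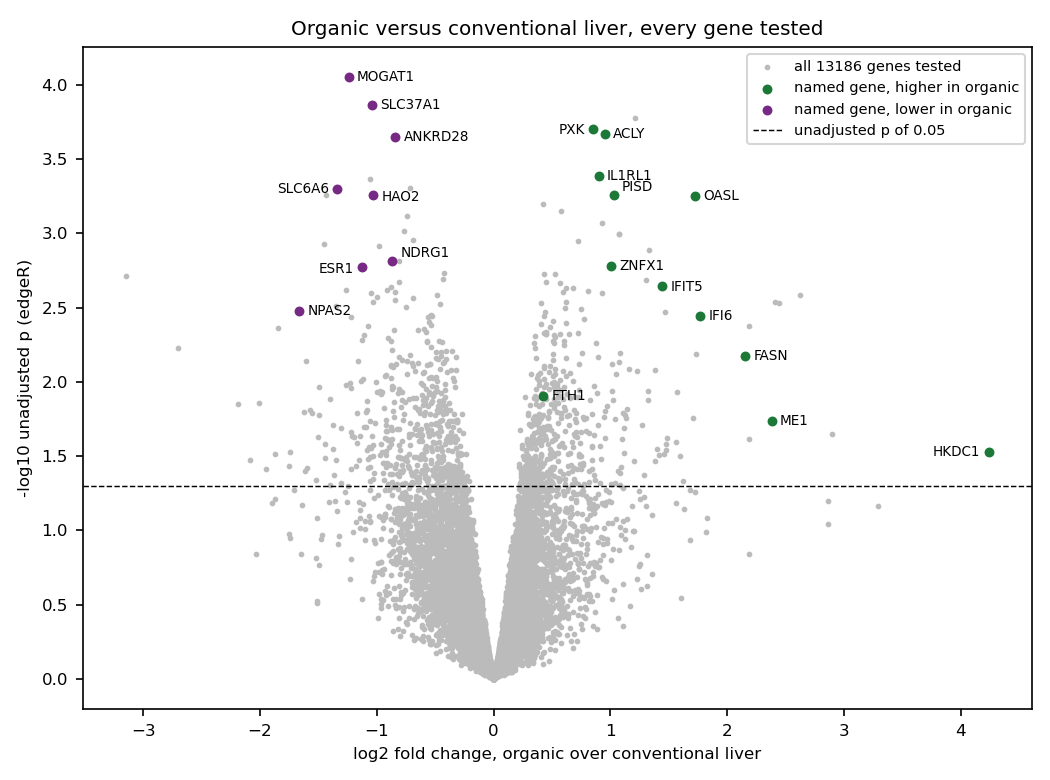
Log2 fold change of organic over conventional liver (x axis) against -log10 of edgeR's unadjusted p (y axis) for the 13186 genes tested. Coloured points are genes described in the text, green where higher and purple where lower in organic livers, and the dashed line is an unadjusted p of 0.05; HKDC1 lies farthest right at 4.24 and MOGAT1 highest on the left at -1.24.

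The smallest p of all genes tested belonged to a gene lower in organic livers. MOGAT1 (ENSGALG00000005217, chromosome 9, 8181677 to 8204484, GRCg6a), an acyltransferase that builds diacylglycerol from monoacylglycerol, had 19.2, 10.4, 17.8, 12.2 and 15.4 CPM in the organic livers, against 37.4, 25.9, 42, 47.5 and 25.2 CPM in the conventional livers, replicates 1 to 5 in order here and below. Every organic liver was under the lowest conventional one, and the log2 fold change was -1.24 ± 0.22; the gene overlaps FARSB in position, so its counts are uncertain. SLC37A1 (ENSGALG00000016185, chromosome 1, 110776509 to 110811358), an exchanger of sugar phosphates in the endoplasmic reticulum, had 5.61, 6.09, 5.94, 8.33 and 7.42 CPM in the organic livers, against 14.2, 12.7, 17.6, 9.16 and 15.1 CPM in the conventional livers. Its groups were apart as well, at -1.04 ± 0.19. DESeq2 called MOGAT1 (adjusted p = 0.000753) and gave SLC37A1 no adjusted p.

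SLC6A6 (ENSGALG00000006425, chromosome 12, 11318269 to 11407020), the taurine transporter, had 30.2, 24.8, 41.3, 35.9 and 51.8 CPM in the organic livers, against 120.3, 88.3, 105, 39.8 and 112 CPM in the conventional livers. Conventional replicate 4 was the 1 conventional liver within the organic range, and the log2 fold change was -1.34 ± 0.28, called by DESeq2 at an adjusted p of 0.00429. ANKRD28, a regulatory subunit of protein phosphatase 6, had 12.9, 15, 15.4, 12.5 and 13.9 CPM in the organic livers, against 34.5, 22.4, 23.1, 17.8 and 27 CPM in the conventional livers, with no overlap, at -0.84 ± 0.16. INHBA, the subunit of activin A, was likewise apart, with 7.74 to 9.71 CPM in organic and 11.2 to 17.1 CPM in conventional livers, at -0.71 ± 0.15. HAO2, a peroxisomal oxidase of hydroxy acids, had 15 to 33.6 CPM in organic and 29.6 to 62.5 CPM in conventional livers, and its log2 fold change was -1.03 ± 0.22. NDRG1, a gene known to respond to low oxygen and to iron shortage, averaged 153 ± 18.6 CPM in organic and 280.0 ± 90.2 CPM in conventional livers (SD, n = 5 each) without overlap, at -0.87 ± 0.22. FGFRL1, a fibroblast growth factor receptor that lacks a kinase, was at -0.69 ± 0.16, AMOT, a scaffold of cell junctions, at -0.74 ± 0.17, and OSBPL10, of the oxysterol binding protein family, at -0.81 ± 0.20. DESeq2 called ANKRD28, HAO2, NDRG1, FGFRL1 and AMOT, with adjusted p from 0.0117 to 0.0424.

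On the higher side, ACLY (ENSGALG00000003475, chromosome 27, 7521200 to 7545007), which splits citrate to supply acetyl-CoA for fat and cholesterol, had 1032, 756, 579, 748 and 644 CPM in the organic livers, against 342, 324, 394, 492 and 389.8 CPM in the conventional livers. The lowest organic liver stood above the highest conventional one, at a log2 fold change of 0.95 ± 0.18. The gene overlaps TTC25 in position and is uncertain to that extent. FTH1 (ENSGALG00000007220, chromosome 5, 16995951 to 17000513), the heavy chain of ferritin, had 5885, 6481, 6604, 6476 and 6136 CPM in the organic livers, against 4382, 4529, 4987, 5118 and 4474 CPM in the conventional livers. This was a small and even difference, 0.43 ± 0.15, with no overlap, and DESeq2 gave it an adjusted p of 0.000546 where edgeR's was 0.625. PXK, a sorting nexin with a kinase-like domain, was also apart, with 28.3 to 44.4 CPM in organic and 15.4 to 24.2 CPM in conventional livers, at 0.85 ± 0.16. PISD, the mitochondrial enzyme that makes phosphatidylethanolamine from phosphatidylserine, had 71.2, 51.6, 47.5, 59 and 29.6 CPM in the organic livers, against 18.9, 31.6, 27.5, 29 and 20.04 CPM in the conventional livers. Only organic replicate 5 reached down into the conventional range, and the log2 fold change was 1.03 ± 0.22.

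IL1RL1, the receptor of interleukin-33, had 25.4, 33.7, 40.2, 33.6 and 40.02 CPM in the organic livers, against 13.3, 27.2, 18.4, 17.1 and 16.6 CPM in the conventional livers, with conventional replicate 2 above organic replicate 1, at 0.90 ± 0.19. PDSS1, which starts the side chain of coenzyme Q, averaged 16.2 ± 1.17 CPM in organic and 10.9 ± 1.42 CPM in conventional livers (SD, n = 5 each), and ELOC, the elongin C subunit of ubiquitin ligases, averaged 38.8 ± 3.12 CPM in organic and 28.8 ± 1.19 CPM in conventional livers (SD, n = 5 each). Both were free of overlap, at 0.57 ± 0.13 and 0.43 ± 0.09. TUBB4B, a beta tubulin whose position overlaps FAM166A, was at 0.72 ± 0.17 and KIAA1671 at 0.53 ± 0.13, again without overlap. DESeq2 called ACLY, PXK, PISD, IL1RL1, PDSS1, ELOC, TUBB4B and KIAA1671. The rule also picked 2 short annotated RNAs, RF00281 at 1.21 ± 0.23 and RF01186 at -1.45 ± 0.35, with 4.35 to 6.76 CPM in organic and 1.88 to 3.02 CPM in conventional livers for RF00281 and 0.29 to 0.977 CPM in organic and 1.35 to 2.32 CPM in conventional livers for RF01186.

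A change of 2-fold or more was fitted for 108 genes higher (0.819%) and 129 genes lower (0.978%) in organic livers. Among genes at an unadjusted p under 0.05, the largest changes with a symbol were HKDC1 at 4.24 ± 1.68, TULP1 at 2.41 ± 0.65, ME1 at 2.38 ± 0.85, FASN at 2.15 ± 0.64 and IFI6 at 1.77 ± 0.48 on the higher side. CACNA1G at -3.15 ± 0.80, CAPN13 at -2.70 ± 0.80, DRD5 at -1.95 ± 0.84, RGS7BP at -1.87 ± 0.76 and NPAS2 at -1.66 ± 0.46 were the largest on the lower side. All but HKDC1, ME1, FASN, IFI6 and NPAS2 were close to the limit of detection. For example, CACNA1G had 0 to 0.491 CPM in organic and 0.723 to 6.78 CPM in conventional livers. TULP1 had 0.824 to 2.51 CPM in organic and 0 to 0.639 CPM in conventional livers. HKDC1 was close to that limit too in every conventional liver but replicate 5, at 0.781 to 1.64 CPM. Leaving out conventional replicate 5 brought CACNA1G to -2.08 and DRD5 to -1.11, and leaving out conventional replicate 1 brought CAPN13 to -1.77. RGS7BP was at -1.55 without conventional replicate 2 and at -3.13 without organic replicate 5.

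Antiviral effectors that cells make in answer to interferon were the list with the most DESeq2 calls. Of 28 members tested, 25 were higher in organic livers, against 47.7% of all genes, and the median log2 fold change was 0.50. Of the 28, 15 had an unadjusted p under 0.05, all higher, where 7.56% of all genes had one. DESeq2 called 6, where it called 0.371% of the genes it gave an adjusted p: OASL, IFIT5, IFI6, CMPK2, ZNFX1 and USP41. With 1 library left out the 15 ranged over 12 to 17, lowest without conventional replicate 5 or organic replicate 3 and highest without conventional replicate 3, and 24 to 27 members were higher.

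CMPK2, a mitochondrial nucleotide kinase, was the member whose groups did not overlap, where 0.561% of all genes had every organic liver higher. It had 172, 76.1, 78.1, 66.5 and 54 CPM in the organic livers, against 47.7, 17.9, 49, 30.4 and 17 CPM in the conventional livers. Its log2 fold change was 1.47 ± 0.39. IFI6 (ENSGALG00000013575, chromosome 2, 89717661 to 89722211), a membrane protein that blocks virus replication, had 339.6, 134, 251, 131 and 55.4 CPM in the organic livers, against 37.2, 46.8, 76.8, 81.2 and 25.8 CPM in the conventional livers. IFIT5, which binds foreign RNA ends, had 226, 119, 137, 155 and 54.7 CPM in the organic livers, against 31.3, 40.1, 66.5, 81.1 and 35.6 CPM in the conventional livers. In both genes organic replicates 1 to 4 exceeded every conventional liver and organic replicate 5 did not. OASL, of the oligoadenylate synthetase family, showed the same order, with organic replicate 5 at 59.7 CPM and conventional replicate 3 at 70.7 CPM. MX1, a dynamin-like antiviral GTPase, was chosen after its values were seen and had 77, 22.5, 54.7, 32.7 and 24 CPM in the organic livers, against 6.93, 8.65, 33.1, 14.8 and 7.52 CPM in the conventional livers. Its log2 fold change of 1.57 ± 0.51 was 2.16 without conventional replicate 3. RSAD2, the antiviral protein viperin, which overlaps RNF144A and was chosen in the same way, was at 1.12 ± 0.40.

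Genes that sense virus and carry the interferon signal were divided. Of these 25 members, 13 were higher, with a median of 0.03, and 4 were higher and 1 lower at an unadjusted p under 0.05, where 3.59% and 3.97% of all genes were. The 4 became 1 when conventional replicate 1, 2 or 5 or organic replicate 5 was left out, and 2 when organic replicate 1 or 3 was. The RNA sensors DHX58 and IFIH1 were at 0.51 ± 0.18 and 0.42 ± 0.16, and the kinase IKBKE at -0.75 ± 0.21. GVINP1, an interferon-induced GTPase that belongs to the effector list above, was the lowest member of that list at -0.66 ± 0.59. It had 104 and 74.1 CPM in conventional replicates 3 and 4, and a log2 fold change of -0.14 without conventional replicate 3. GVINP1 was chosen after its values were seen. The interferon genes IFNW1 and IFNL3 did not pass the filter. T cell markers stood in the other direction, lower for 11 of 11 members, where 47.7% of all genes were higher. Their median was -0.25, or -0.07 without conventional replicate 5, and 0 of the 11 had an unadjusted p under 0.05. They summed to 134 to 173 CPM in organic livers, within the 123 to 292 CPM of conventional livers. Macrophage markers were higher for 6 of 11. The part of T cells and macrophages in the antiviral result was not tested.

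**Figure D2:**
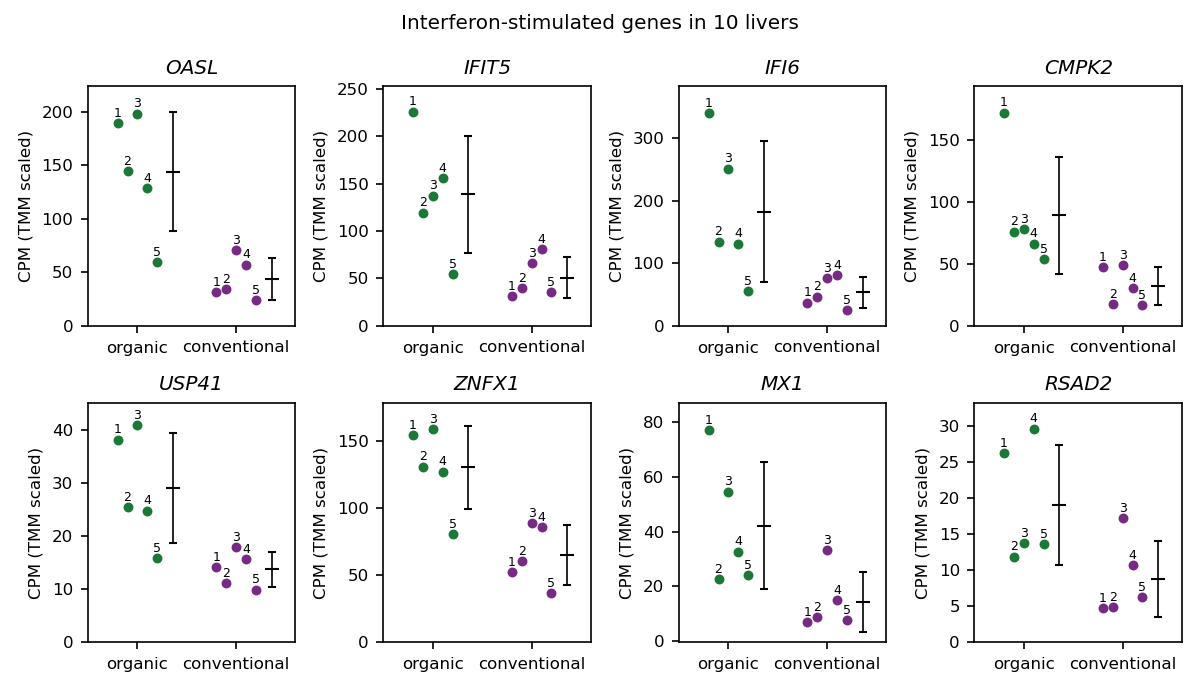
TMM scaled CPM of 8 interferon-stimulated genes in each liver, organic at left and conventional at right, with replicate numbers above the points and the mean ± SD of each group (n = 5) as black bars. CMPK2 is the gene of the 8 without overlap; in OASL, IFIT5 and IFI6 organic replicates 1 to 4 lie above every conventional liver, and in MX1 and RSAD2 conventional replicate 3 is the highest conventional liver.

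All 16 fatty acid synthesis genes tested stood higher, 4 of them at an unadjusted p under 0.05, where 3.59% of all genes were higher at that p, and their median log2 fold change was 0.55. ACLY was the 1 member whose groups did not overlap, where 0.561% of all genes had every organic liver higher. The other members named here were highest in organic replicates 1 or 4. FASN, the fatty acid synthase (ENSGALG00000040896, chromosome 18, 4912089 to 4948124), had 3022, 738, 307, 2155 and 525 CPM in the organic livers, against 108, 206, 419, 395 and 390.0 CPM in the conventional livers. Organic replicates 1, 2, 4 and 5 stood above every conventional liver, and organic replicate 3 lay among them. ME1, the malic enzyme that supplies NADPH for fat synthesis and overlaps RWDD2A, had 740.0, 133, 31.2, 279 and 30.8 CPM in the organic livers, against 49.1, 27.6, 26.6, 49.1 and 80.8 CPM in the conventional livers. Organic replicates 1, 2 and 4 were above the conventional livers, and the log2 fold change of 2.38 ± 0.85 was 1.35 without organic replicate 1. ELOVL6, which lengthens palmitate, was at 0.75 ± 0.28.

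THRSP, the lipogenic Spot 14 protein, had 1582, 376, 90.6, 483 and 84.5 CPM in the organic livers, against 119, 62, 149, 146 and 368 CPM in the conventional livers, and its log2 fold change of 1.63 ± 0.81 was 0.61 without organic replicate 1. SCD, the desaturase that makes oleate, spread widely within each group, with 604, 102, 4.35, 253 and 28.7 CPM in the organic livers, against 3.57, 7.21, 379, 47.2 and 22.3 CPM in the conventional livers. Its log2 fold change of 1.11 ± 1.38 became 0.08 when organic replicate 1 was left out, and 3.31 when conventional replicate 3 was. PNPLA3, a lipase of lipid droplets that overlaps SULT4A1, was at 256 and 254 CPM in organic replicates 1 and 4 and at 26.2 to 88 CPM in the other 8 livers. Without organic replicate 1 the list had 15 of 16 members higher, 2 at that p and a median of 0.25, and without organic replicate 3 it had 7 at that p. THRSP, SCD, ELOVL6 and PNPLA3 were chosen after their values were seen.

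Cholesterol synthesis showed the same livers at the top. Of 19 enzymes tested 18 were higher in organic livers, with a median of 0.83, and 3 were at an unadjusted p under 0.05, against 3.59% of all genes. CYP51A1, the lanosterol demethylase, had 605, 167, 126, 386 and 144 CPM in the organic livers, against 104, 121, 119, 197 and 124 CPM in the conventional livers. DHCR7, the last enzyme of one branch, had 159, 43.4, 24, 102 and 40.8 CPM in the organic livers, against 29.7, 36.6, 35.9, 49.9 and 32.1 CPM in the conventional livers. In both, organic replicates 1 and 4 exceeded the other 8 livers, and organic replicates 2, 3 and 5 lay within the conventional range or, for DHCR7 in organic replicate 3, under it. Without organic replicate 1 their log2 fold changes were 0.63 and 0.51, against 1.10 ± 0.42 for CYP51A1 in all livers. SQLE, squalene epoxidase, had 299 and 159.6 CPM in organic replicates 1 and 4 and 28.2 to 65.8 CPM in the other 8 livers. The exception was HMGCS1, with 1044 and 643 CPM in organic replicates 1 and 4 and 1192 to 2764 CPM in the other 8, and a log2 fold change whose sign differed between settings. ACAT2, whose position overlaps TCP1, was highest in organic replicate 3 instead, at 494 CPM, and its log2 fold change of 1.11 ± 0.39 was 0.73 without that library. The list had 19 of 19 members higher with a median of 0.44 without organic replicate 1, where 1 was at that p. That number was also 1 with organic replicate 4, conventional replicate 1 or conventional replicate 3 left out and 2 with conventional replicate 5 left out, but 14 or 12 with organic replicate 5 or 3 left out, and the median was 0.57 with organic replicate 4 left out. SQLE and HMGCS1 were chosen after their values were seen.

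Thyroid hormone handling had 8 of 13 members higher, a median of 0.01 (-0.03 with organic replicate 1 left out), and 1 gene with a very wide spread. DIO2, the deiodinase that turns thyroxine into active T3, had 654, 1.5, 2.68, 258 and 5.33 CPM in the organic livers, against 61, 16.6, 4.27, 4.12 and 8.26 CPM in the conventional livers. Organic replicates 1 and 4 were above all other livers, organic replicates 2 and 3 were below every conventional liver, and the log2 fold change of 3.29 ± 1.62 was 1.83 without organic replicate 1. The receptors THRA at -0.19 and THRB at -0.27 and the deiodinase DIO1 at 0.19 did not reach an unadjusted p under 0.05. NCOA1, a coactivator of nuclear receptors, was at -0.33 ± 0.15.

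Genes of glucose use and fatty acid burning had no common direction, but several were ordered by liver. Glycolysis genes were higher for 12 of 22, gluconeogenesis genes for 9 of 17, and genes of fatty acid oxidation for 17 of 34, all close to the 47.7% of all genes. HKDC1, a hexokinase-like protein, had 315, 3.38, 0.435, 38.7 and 2.41 CPM in the organic livers, against 1.14, 0.941, 1.64, 0.781 and 14.3 CPM in the conventional livers, and its log2 fold change was 1.57 without organic replicate 1. PCK1, the enzyme that commits carbon to glucose, had 0.927, 45.2, 435, 2.71 and 5.01 CPM in the organic livers, against 5.57, 6.33, 12.9, 39.8 and 2.59 CPM in the conventional livers. It was lowest in organic replicate 1 and highest in organic replicate 3, and its log2 fold change of 2.86 ± 1.53 was -0.0074 without organic replicate 3. CPT1A, which admits fatty acids to mitochondria, had 64.1, 293, 541, 61.4 and 163 CPM in the organic livers, against 495, 315, 366, 318 and 276 CPM in the conventional livers. Its 2 lowest livers were organic replicates 4 and 1, those with the most FASN, and its highest was organic replicate 3, the organic liver with the least FASN. PCK1 and CPT1A were chosen after their values were seen, and the feeding state of the birds at slaughter was not tested.

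UGP2, the enzyme that forms UDP-glucose, had 1999, 732, 622, 725 and 647 CPM in the organic livers, against 458, 281, 512, 492 and 483 CPM in the conventional livers. The groups were apart, at 1.09 ± 0.33, and at 0.61 without organic replicate 1. Its list of glycogen and sugar nucleotide genes was higher for 16 of 25, with a median of 0.06, and PYGB, a glycogen phosphorylase, was at -0.53 ± 0.20. Among the sugar transporters, 7 of 17 higher, SLC2A9, a urate carrier, was at -0.77 ± 0.27, or -0.48 without conventional replicate 1, beside SLC37A1.

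**Figure D3:**
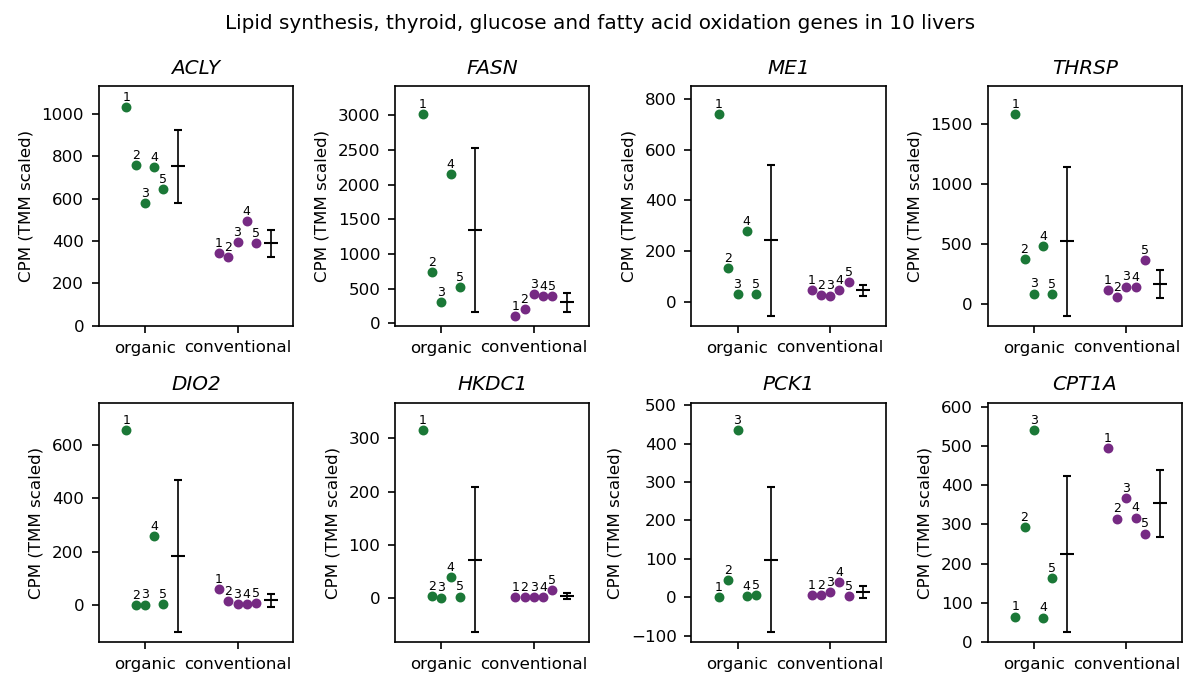
TMM scaled CPM of 8 metabolic genes in each liver, organic at left and conventional at right, with replicate numbers and the mean ± SD of each group (n = 5). Organic replicates 1 and 4 are the 2 highest livers for FASN, ME1, THRSP, DIO2 and HKDC1 and the 2 lowest for CPT1A, while the 5 organic livers of ACLY all lie above the conventional ones.

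Genes of polyunsaturated fatty acid desaturation and elongation were divided. Of 14 members 9 were higher, with a median of 0.11 that was 0.04 when organic replicate 1 was left out. At an unadjusted p under 0.05, 1 was higher and 2 lower, where 3.59% and 3.97% of all genes were. ELOVL2, which lengthens the precursors of docosahexaenoic acid, had 20.3, 24.8, 7.76, 41.2 and 12.7 CPM in the organic livers, against 64.4, 33.5, 48.2, 35.1 and 67.2 CPM in the conventional livers, a log2 fold change of -1.22 ± 0.40. FADS1, the delta-5 desaturase named through RefSeq, had 223, 171, 149, 168 and 109 CPM in the organic livers, against 377, 346, 147, 170.2 and 253 CPM in the conventional livers and was at -0.66 ± 0.27. FADS2, the delta-6 desaturase, chosen after its values were seen, was at -0.50 ± 0.28. FADS1 was above the organic range in conventional replicates 1, 2 and 5, and ELOVL2 in conventional replicates 1, 3 and 5. HSD17B12, which serves every elongation cycle, was at 0.60 ± 0.19.

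Triglyceride and droplet genes, 9 of 22 higher, had members on either side. PLIN2, the coat protein of lipid droplets, had 84.7, 149, 257, 272 and 93.5 CPM in the organic livers, against 45.7, 61.2, 82.9, 124 and 52.4 CPM in the conventional livers, and conventional replicate 4 lay inside the organic range, at a log2 fold change of 1.23 ± 0.38. LPIN1, which makes diacylglycerol, was at 0.70 ± 0.24, opposite in sign to MOGAT1, and CIDEC, a protein of droplet fusion, at 0.92 ± 0.45, or 0.52 without organic replicate 3. Phospholipid synthesis genes were higher for 13 of 22. After PISD they included DEGS1, which makes ceramide, at 0.76 ± 0.23, PEMT, which methylates phosphatidylethanolamine, at 0.39 ± 0.17, and SPTLC2, the ceramide pathway's first enzyme, at 0.23 ± 0.12 with no overlap. Lipoprotein genes were higher for 12 of 17, with APOA1 at 0.52 ± 0.23 and the lipase LPL at -0.58 ± 0.25. APOA4 was at 0.99 ± 0.48, and at 0.30 without organic replicate 3, which held 4980.3 CPM.

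Most chaperone genes stood higher in organic livers. Of 39 cytosolic heat shock genes 34 were higher, against 47.7% of all genes, around a median of 0.35. Of the 39, 12 were higher at an unadjusted p under 0.05, where 3.59% of all genes were. Leaving out organic replicate 1 gave 32 higher, 3 at that p and a median of 0.18. The 12 became 6 and 7 with conventional replicate 5 or 3 left out and 21 with organic replicate 5 left out. HSP90AA1, the inducible HSP90, had 3445, 660.2, 522, 955 and 336 CPM in the organic livers, against 280.3, 436, 189, 595 and 312 CPM in the conventional livers, and its log2 fold change of 1.71 ± 0.61 was 0.77 without organic replicate 1. HSPH1, a partner of HSP70 chosen after its values were seen, reached 151 CPM in organic replicate 1 and 9.79 to 22.3 CPM in the other 9 livers. DNAJA1, which overlaps APTX, was at 0.89 ± 0.30 and HSPA8, which holds small nucleolar RNAs, at 1.02 ± 0.35; without organic replicate 1 they were at 0.56 and 0.61.

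Genes of the unfolded protein response, by which the endoplasmic reticulum adds folding capacity, were higher for 40 of 44, with a median of 0.26. Over all genes, 47.7% were higher. Of the 44, 18 were higher at an unadjusted p under 0.05, where 3.59% of all genes were. The 18 became 10 with organic replicate 1 left out, 11 with conventional replicate 5 left out and 27 with organic replicate 4 left out. HSPA5, the chaperone BiP, also chosen after its values were seen (ENSGALG00000001000, chromosome 17, 9890855 to 9894996), had 3537, 1340.2, 1324, 989.6 and 1169.9 CPM in the organic livers, against 323, 757, 668, 1244 and 359 CPM in the conventional livers. Conventional replicate 4 was inside the organic range, and the log2 fold change of 1.32 ± 0.44 was 0.85 without organic replicate 1. SDF2L1 was at 1.01 ± 0.31, SEC61B, a subunit of the translocation channel, at 0.62 ± 0.18, and SRP14, of the signal recognition particle, at 0.57 ± 0.15 with no overlap between groups. XBP1, a driver of the response, chosen after its values were seen, was at 0.24 ± 0.25, or 0.12 without conventional replicate 5 and 0.52 without conventional replicate 4.

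Ribosomal and respiratory chain genes stood slightly higher almost throughout. All 68 cytosolic ribosomal protein genes stood higher, 9 of them at an unadjusted p under 0.05, around a median of 0.25. The 9 became 3 when organic replicate 1 was left out, 5 when organic replicate 2 or conventional replicate 1 was, and 38 when organic replicate 5 was. RPL32 was the member without overlap, where 0.561% of all genes had every organic liver higher. It had 276 to 389.6 CPM in organic and 200.1 to 272 CPM in conventional livers, and RPS21 was at 0.54 ± 0.18. Nuclear-encoded subunits of the respiratory chain were higher for 65 of 68, with a median of 0.23 and 8 at that p, again against 3.59% of all genes. The 8 became 28 and 21 with organic replicate 5 or 4 left out, 3 with organic replicate 1 or conventional replicate 2 left out, 2 with conventional replicate 5 left out, 1 with organic replicate 2 left out and 5 with conventional replicate 1 left out. NDUFB1, which overlaps CPSF2, had 154, 118, 98.7, 91.8 and 118 CPM in the organic livers, against 73.2, 80.4, 86.8, 85 and 83.1 CPM in the conventional livers, with no overlap between groups, at 0.51 ± 0.14. ATP5ME was at 0.39 ± 0.15 and NDUFS6 at 0.35 ± 0.13. The 13 subunits encoded in mitochondrial DNA were all higher, but 0 of them at an unadjusted p under 0.05. Their median of 0.23 was 0.05 without organic replicate 4, the library with the largest mitochondrial share, where 11 of 13 were higher. Proteasome subunits were higher for 31 of 34 with a median of 0.15, or 0.05 without organic replicate 1. Of the 34, 1 was higher at an unadjusted p under 0.05, where 3.59% of all genes were.

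**Figure D4:**
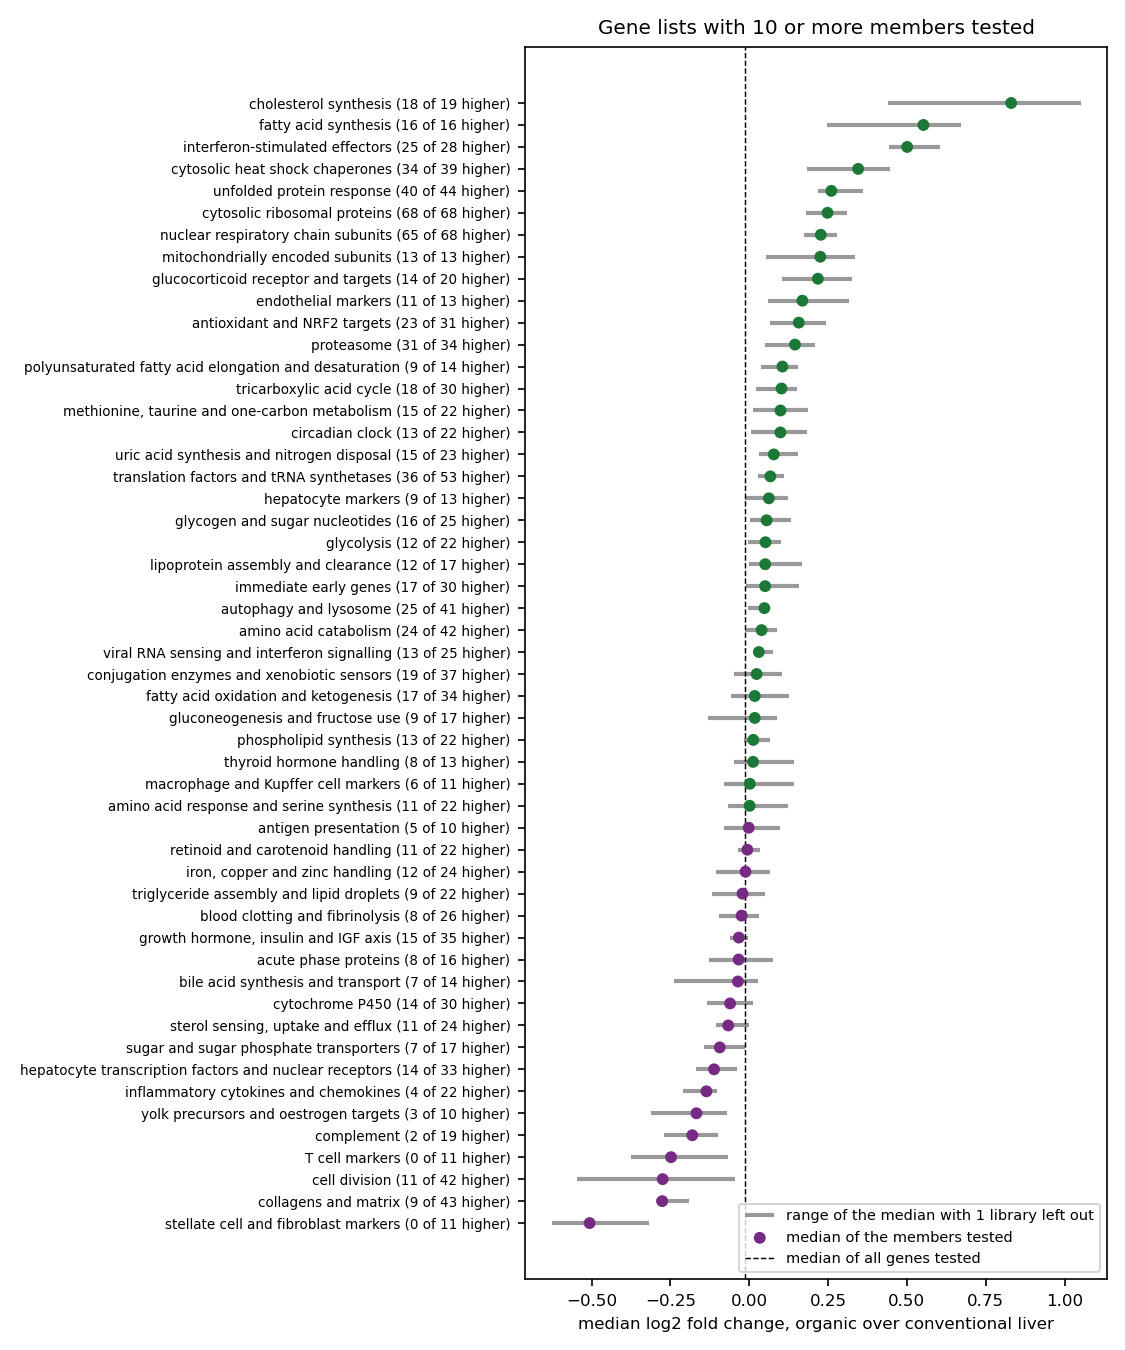
Median log2 fold change, organic over conventional liver, of each gene list with 10 or more members tested (points, green above and purple below 0), with the range of that median when 1 library was left out (grey bars) and the median of all genes (dashed line). Cholesterol synthesis (0.83), fatty acid synthesis (0.55) and interferon-stimulated effectors (0.50) stand farthest right and stellate cell and fibroblast markers (-0.51) farthest left.

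Scores per liver, the mean log2 CPM of a list less its conventional mean, show how these lists divide the birds. The interferon effectors scored 0.88, 0.47, 0.76, 0.62 and 0.46 in organic livers, against -0.39, -0.28, 0.58, 0.34 and -0.24 in conventional livers. All 5 organic livers were above 0, and conventional replicates 3 and 4 were too. Fatty acid synthesis scored 1.59, 0.59, -0.36, 1.12 and 0.065 in organic livers, against -0.19, -0.35, 0.31, 0.17 and 0.056 in conventional livers. Cholesterol synthesis scored 1.45, 0.44, -0.23, 1.06 and -0.32 in organic livers, against 0.051, 0.012, -0.25, 0.32 and -0.13 in conventional livers. For both, organic replicates 1 and 4 were the 2 highest livers and organic replicate 2 the third, while organic replicate 3 was below every conventional liver for fatty acids and organic replicate 5 below them for cholesterol.

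**Figure D5:**
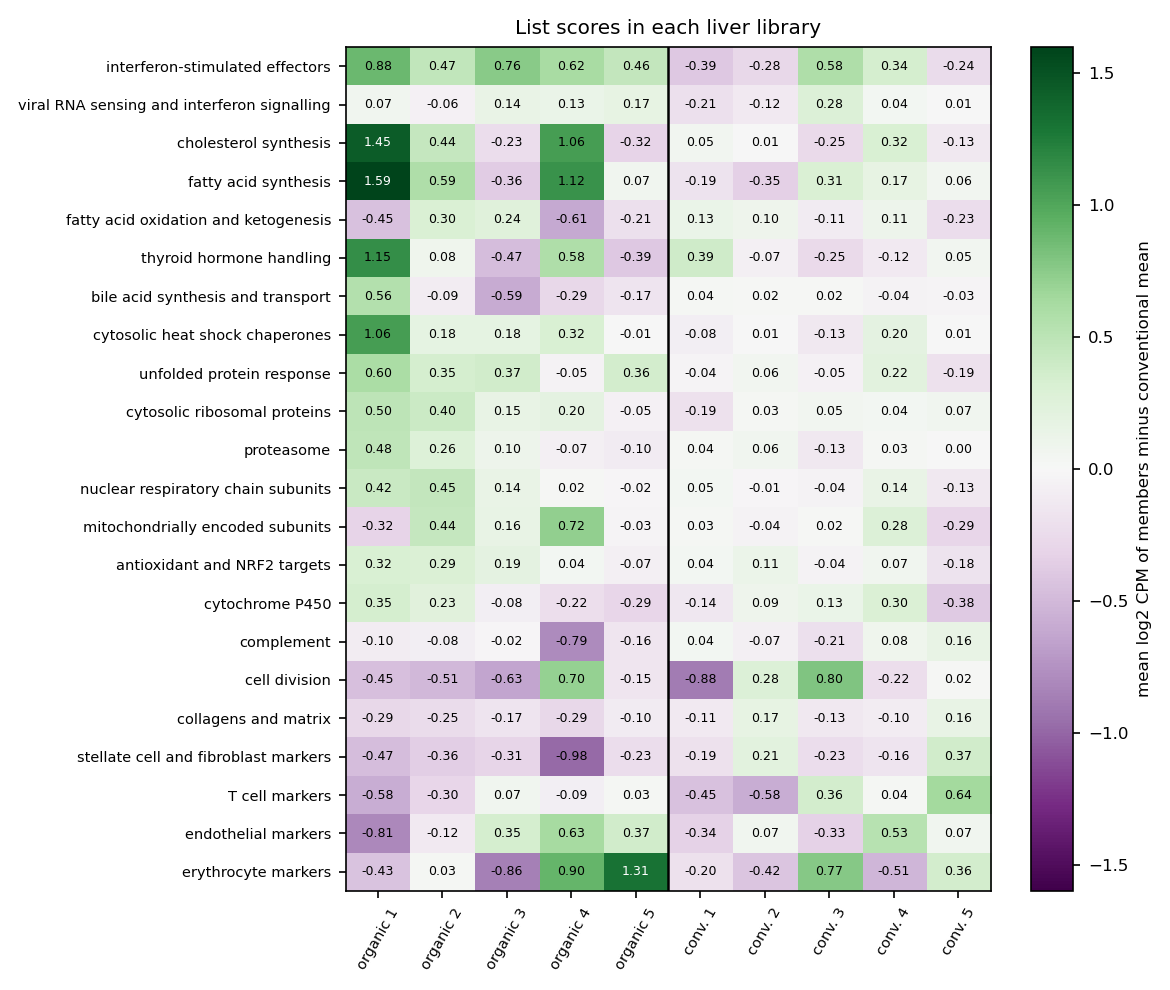
Score of 22 gene lists (down the page) in each liver, organic replicates 1 to 5 left of the line and conventional replicates 1 to 5 right of it; colour and printed value are the mean log2 CPM of the members minus the mean of the conventional livers. Organic replicate 1 has the highest scores of fatty acid synthesis (1.59), cholesterol synthesis (1.45) and cytosolic heat shock chaperones (1.06).

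The extracellular matrix differed in direction from these lists. Collagen and matrix genes were lower for 34 of 43 members, with a median of -0.28, and 7 were lower and 0 higher at an unadjusted p under 0.05, where 3.97% of all genes were lower. The 7 became 4 with conventional replicate 2 left out and 11 or 12 with conventional replicate 3 or organic replicate 5 left out. FN1, fibronectin, had 742, 758, 812, 691 and 920.0 CPM in the organic livers, against 935, 1221, 1013, 960.0 and 998 CPM in the conventional livers, with no overlap, at -0.39 ± 0.14. COL3A1, a fibrillar collagen, had 155, 136, 130.2, 82.1 and 116 CPM in the organic livers, against 199, 195, 184, 136 and 181 CPM in the conventional livers, and COL5A2, which overlaps it in position, 16.8, 19, 17.8, 17.2 and 24.3 CPM in the organic livers, against 28.4, 28.1, 24.9, 22.7 and 28.8 CPM in the conventional livers. The log2 fold changes were -0.53 ± 0.17 and -0.48 ± 0.13. COL6A1 was at -0.56 ± 0.19 and OGN, a small proteoglycan, at -0.81 ± 0.31. Markers of stellate cells and fibroblasts, which share COL1A1, COL1A2, COL3A1, DCN, LUM and OGN with the matrix list, were lower for 11 of 11, with a median of -0.51, or -0.32 without conventional replicate 5. Their summed level was 327 to 572 CPM in organic livers and 561 to 820.3 CPM in conventional livers, and PDGFRA and THY1 did not pass the filter. Smooth muscle markers were lower for 4 of 5, with a median of -0.44, or -0.18 without conventional replicate 4. MYH11 was at -0.47 ± 0.19 and LMOD1 at -0.61 ± 0.25, while ACTA2 was at 0.08. Scores of this list were 0.52 and 0.61 in conventional replicates 4 and 5. They were -0.43 to -0.30 in conventional replicates 1 to 3, within the -0.47 to 0.05 of the organic livers. In whole liver, fewer cells of a type and less RNA per cell cannot be told apart.

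Other cell markers were mixed. Cholangiocyte markers were higher for 2 of 6, B cell markers for 4 of 6, thrombocyte markers for 3 of 7, smooth muscle markers for 1 of 5, adipocyte markers for 1 of 3, heterophil markers for 0 of 2 and pancreas markers for 1 of 1. Endothelial markers were higher for 11 of 13, with a median of 0.17, which became 0.06 with organic replicate 4 left out and 0.32 with conventional replicate 4 left out. Erythrocyte markers were higher for 5 of 5, or 4 of 5 without organic replicate 5, and summed to 202 to 977 CPM in organic livers and 234 to 628 CPM in conventional livers, and their score was highest in organic replicates 5 and 4, with HBA1 at 0.66 ± 0.59, or 0.21 without organic replicate 5. Cell division genes were lower for 31 of 42, with a median of -0.27, which became -0.04 with conventional replicate 3 left out and -0.55 with organic replicate 4 left out. At an unadjusted p under 0.05, 1 of the 42 was lower and 0 were higher, where 3.97% and 3.59% of all genes were. MKI67 and TOP2A, markers of dividing cells chosen after their values were seen, were highest in conventional replicate 3, at 27.9 and 38.3 CPM, and second in organic replicate 4, at 20.9 and 26.7 CPM. CCND2, a cyclin of the G1 phase, had 20.9 to 26.8 CPM in organic and 26.6 to 43.5 CPM in conventional livers, at -0.43 ± 0.14.

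Both oestrogen receptors stood lower in organic livers. ESR1 (ENSGALG00000012973, chromosome 3, 49053965 to 49241576), the oestrogen receptor of liver, had 11.2, 10.9, 8.41, 14.3 and 18.5 CPM in the organic livers, against 38.8, 30.1, 22.7, 13.4 and 33.5 CPM in the conventional livers. Conventional replicate 4 was the conventional liver inside the organic range, the log2 fold change was -1.13 ± 0.28, and DESeq2's adjusted p was 0.0386. ESR2 was at -1.31 ± 0.48, with 22.7 and 25.6 CPM in conventional replicates 1 and 5 and 1.45 to 13 CPM in the other 8 livers. The yolk precursor and oestrogen target list was higher for 3 of 10. At an unadjusted p under 0.05, 4 were lower and 0 higher, where 3.97% and 3.59% of all genes were. The 4 became 1 with conventional replicate 1 or 5 left out. Another 5 members did not pass the filter, among them the yolk precursors VTG1, VTG2 and APOV1. NPAS2, a partner of the clock protein BMAL1, had 2.29, 5.41, 1.09, 2.59 and 3.04 CPM in the organic livers, against 8.79, 10.2, 5.59, 3.62 and 17.4 CPM in the conventional livers, at -1.66 ± 0.46, and it was the 1 clock gene lower at an unadjusted p under 0.05. ARNTL and CLOCK, which did not reach that p, were at -0.72 and -0.55. BHLHE41, a clock repressor, was at 1.47 ± 0.58 and TEF, an output factor, at 0.42 ± 0.15. The clock list was higher for 13 of 22, with 3 members higher at that p, where 3.59% of all genes were. The hour at which each bird was sampled was not known here. PPARGC1A, a coactivator of mitochondrial genes, was at -0.74 ± 0.31, and CISH, a growth hormone target, was at -0.58 ± 0.23. Glucocorticoid targets were higher for 14 of 20, with a median of 0.22 that was 0.10 with organic replicate 4 left out. At an unadjusted p under 0.05, 3 were higher and 0 lower, where 3.59% and 3.97% of all genes were. With organic replicate 1 left out 11 of 20 were higher and 2 were lower at that p. Higher members numbered, among genes of the growth hormone, insulin and IGF axis, 15 of 35 and, among immediate early genes, 17 of 30. CLOCK was chosen after its values were seen, and so were ARNTL, THRA, THRB and DIO1.

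Of the antioxidant genes, 23 of 31 were higher, with a median of 0.16 that was 0.07 when organic replicate 1 was left out. TXNRD3 and TXNRD1, thioredoxin reductases, were at 0.93 ± 0.24 and 0.66 ± 0.23, and TXNRD2, the mitochondrial form, at -0.27 ± 0.11. In iron, copper and zinc handling, 12 of 24 higher, FTH1 stood beside the iron importer SLC11A2 at -0.33 ± 0.13 and the manganese exporter SLC30A10 at -0.47 ± 0.16. Cytochrome P450 genes were higher for 14 of 30. Of these CYP1B1 was at -1.22 ± 0.34 and CYP2U1 at -0.60 ± 0.19, while POR, the reductase that feeds electrons to P450 enzymes and overlaps TMEM120A, had 665, 859, 669.9, 471 and 348 CPM in the organic livers, against 293, 379.8, 294, 509 and 187 CPM in the conventional livers, at 0.86 ± 0.29. CYP2C18, chosen after its values were seen, reached 543 CPM in organic replicate 1 and 9.65 to 104 CPM in the other 9. ABCB11, the pump that exports bile salts, had 85.8, 116, 49.1, 80.2 and 101 CPM in the organic livers, against 203, 148, 121, 95.7 and 157 CPM in the conventional livers, at -0.74 ± 0.24. CYP7A1, the first enzyme of bile acid synthesis, chosen after its values were seen, was at 3.83 to 180.2 CPM in organic and 16.2 to 175 CPM in conventional livers with no separation. RDH10, of retinal synthesis, was at 0.57 ± 0.19 and RDH11 at 1.40 ± 0.55, or 0.73 without organic replicate 1.

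Complement genes were lower for 17 of 19, with a median of -0.18, and without organic replicate 4 for 12 of 19, with a median of -0.10. Among them 1, the activating protease MASP1 at -0.45 ± 0.16, was at an unadjusted p under 0.05, where 3.97% of all genes were lower. Clotting genes were lower for 18 of 26, with a median of -0.02 against -0.014 for all genes, and leaving out organic replicate 4 turned them to 16 of 26 higher with a median of 0.03. F5, the cofactor of thrombin formation, had 701, 676, 651, 551 and 737 CPM in the organic livers, against 908, 797, 738, 789 and 885 CPM in the conventional livers, with no overlap, at -0.31 ± 0.14. F11 was at -0.38 ± 0.17. Fibrinogen chains, among the 10 most abundant transcripts, were near 0 and differed in sign between settings, with FGB at 0.02 ± 0.28 and its lowest liver, organic replicate 4, at 9718 CPM. Acute phase genes were higher for 8 of 16. SAA, the serum amyloid, held 298 CPM in conventional replicate 5 and 8.34 to 54 CPM in the other 9. Inflammatory cytokines and chemokines were lower for 18 of 22, with a median of -0.14. That median was -0.21 with conventional replicate 1 left out and -0.10 with conventional replicate 5 left out. Without conventional replicate 3, 8 of 22 were higher. At an unadjusted p under 0.05, 0 were lower and 1, IL1RL1, was higher, where 3.97% and 3.59% of all genes were. Antigen presentation genes were higher for 5 of 10.

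Amino acid catabolism genes were higher for 24 of 42, amino acid response genes for 11 of 22 and genes of uric acid and nitrogen disposal for 15 of 23. SARDH and PIPOX, which break down sarcosine, were at -0.86 ± 0.27 and -0.54 ± 0.22, and PIPOX was at -0.30 without conventional replicate 2. PAICS, an enzyme of purine synthesis whose position overlaps PPAT, was at 0.76 ± 0.36. MTHFD2, of mitochondrial folate metabolism, was at -0.88 ± 0.39, or -0.57 without conventional replicate 1. Methionine, taurine and one-carbon genes, the list of SLC6A6, were higher for 15 of 22, sterol sensing and efflux genes for 11 of 24 and tricarboxylic acid cycle genes for 18 of 30. Translation factors were higher for 36 of 53, autophagy genes for 25 of 41, conjugation enzymes for 19 of 37, retinoid genes for 11 of 22 and hepatocyte transcription factors for 14 of 33. None of these lists had more than 2 members on a side at an unadjusted p under 0.05.

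Whether a liver difference exceeded that of breast muscle was tested over all 20 libraries. The test took liver and muscle libraries as independent. Whether a liver and a muscle of the same number came from the same bird was not given in the sources used here. With edgeR 0 of 14447 genes, 0%, passed an adjusted p of 0.05, the smallest adjusted p being 0.816, and 771 genes (5.34%) had an unadjusted p under 0.05; DESeq2 also called 0. Among genes that have a symbol, the smallest p in this test belonged to CMC4, SLC6A6, ZSWIM5, SKI and ATXN7. SLC6A6 was at -1.34 ± 0.28 in liver and 0.34 ± 0.27 in muscle, a difference of -1.67 ± 0.40. ACLY was at 0.95 ± 0.18 in liver and -0.01 ± 0.17 in muscle, a difference of 0.97 ± 0.25, and MOGAT1 at -1.24 ± 0.22 and 0.62 ± 0.39, a difference of -1.86 ± 0.46. OASL was at 1.73 ± 0.36 in liver and 0.99 ± 0.34 in muscle, PISD at 1.03 ± 0.22 and 1.11 ± 0.39, and IL1RL1 at 0.90 ± 0.19 and 1.06 ± 0.38. The interferon effectors were higher for 19 of 25 in muscle, with a median of 0.17, and the heat shock chaperones for 37 of 39, with a median of 0.36. Ribosomal proteins were higher for 20 of 68 in muscle, with a median of -0.07, and cholesterol synthesis enzymes for 6 of 18, with a median of -0.15. The share of all genes higher in muscle is not given here, so these muscle counts stand without a background.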

How the data were processed

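The deposited table gives, for 27170 genes, read counts and FPKM (scaled for gene length and depth) in each of 20 libraries, both made by the authors; every sample column was matched to a sample, and some items are not reported here. RNA was extracted with TRIzol (RIN of 7.7 or more) and sequenced on Illumina libraries, per the labels' protocols. HISAT2 2.0.5, DESeq2 1.20.0 and GRCg6a are named, without roles, in the submitters' processing notes; the counting tool, strandedness and treatment of reads shared between genes were not given in the sources used here, so genes that overlap others or have near-identical copies are uncertain. The table has no symbol for 13482 genes; 725 were named from a RefSeq table of GRCg7b.

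Deposited counts of the 10 livers were fitted with edgeR 4.0.16 (R 4.3.3; TMM, filterByExpr with minimum count 10, robust quasi-likelihood F-test, two-sided, Benjamini-Hochberg over 13186 genes). CPM are TMM scaled, and a CPM is a level per library, not per length; deposited FPKM served for levels between genes and for limma 3.58.1 with pseudocounts of 1 and 0.1. DESeq2 1.42.0 ran with default settings. It left 5630 genes without an adjusted p. Liver minus muscle was an interaction over 4 groups. The fit was also run on simulated counts, drawn independently for each gene and liver from the means and dispersions of these livers. Those counts lack variation that genes share within a liver, and the outcome is not given here.

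The comparison and 61 gene lists were chosen with earlier results of these data known. Named genes were the 12 of smallest p and 5 of largest change per direction, DESeq2 calls, 3 of smallest p per list with every non-overlapping member, the 5 of smallest p between tissues and the 10 most abundant; others are said to be chosen after their values were seen. No set test was run.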

Additional observations from a re-analysis of the deposited data

Results flagged for a closer look

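Values of the named genes were screened for 1 liver far from the other 4 of its group on the log2 CPM scale, by the gap to its nearest neighbour over the group's range (Dixon's critical value of 0.71). Of 470 groups of 5 livers, 30 were marked, where chance marks about 1 in 20. In organic liver replicate 1 these were HSPA5 at 3537 CPM (the other 4, 989.6 to 1340.2), HSPH1 at 151 CPM (the other 4, 10.5 to 22.3), MCL1 at 371 CPM (the other 4, 239.7 to 265), PSMD14 at 47.8 CPM (the other 4, 28.1 to 31.6) and UGP2 at 1999 CPM (the other 4, 622 to 732). In organic liver replicate 3 these were CCND2 at 20.9 CPM (the other 4, 25.4 to 26.8) and ESR2 at 1.45 CPM (the other 4, 5.77 to 8.67). In organic liver replicate 4 this was C3 at 7472 CPM (the other 4, 13247 to 15584). In organic liver replicate 5 these were ALDOC at 28.3 CPM (the other 4, 19.3 to 21.1), BLK at 7.99 CPM (the other 4, 3.65 to 4.28) and GCG at 0.254 CPM (the other 4, 0.977 to 1.23). In conventional liver replicate 1 these were BLB2 at 62.3 CPM (the other 4, 157 to 226), CSF3R at 16.9 CPM (the other 4, 9.85 to 11.5), RPL32 at 200.1 CPM (the other 4, 259 to 272), SLC11A2 at 28 CPM (the other 4, 33.7 to 36) and SOX5 at 11.1 CPM (the other 4, 6.16 to 6.9). In conventional liver replicate 2 these were AHSG at 3897 CPM (the other 4, 5791 to 6695) and UGP2 at 281 CPM (the other 4, 458 to 512). In conventional liver replicate 3 this was MASP1 at 94.6 CPM (the other 4, 127 to 142). In conventional liver replicate 4 these were COL3A1 at 136 CPM (the other 4, 181 to 199), CYP51A1 at 197 CPM (the other 4, 104 to 124), CYP7A1 at 16.2 CPM (the other 4, 88.3 to 175), HAO2 at 29.6 CPM (the other 4, 50.5 to 62.5), IL1B at 1.56 CPM (the other 4, 3.86 to 4.5), RDH11 at 16.3 CPM (the other 4, 7.03 to 8.34) and SLC6A6 at 39.8 CPM (the other 4, 88.3 to 120.3). In conventional liver replicate 5 these were CXCL12 at 21.1 CPM (the other 4, 8.72 to 9.73), HKDC1 at 14.3 CPM (the other 4, 0.781 to 1.64), NDUFS6 at 28.3 CPM (the other 4, 33.3 to 34.9) and SAA at 298 CPM (the other 4, 8.73 to 22.4). Effects in liver and in breast muscle were not told apart for any gene at an adjusted p of 0.05 by edgeR, where the smallest was 0.816 and 771 genes had an unadjusted p under 0.05, or by DESeq2, which called 0. No cause of these values was tested.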

How the results depend on the processing

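The count of genes past an adjusted p of 0.05 was 0 in edgeR and limma under every alternative run, and 28 in DESeq2; the cause was not tested. The count at an unadjusted p under 0.05, 997, was 949 to 1312 under the other settings and 811 with the replicate block, and 688 to 1547 with 1 library left out, highest without organic replicate 5. Same-numbered organic and conventional livers correlated at -0.144 to 0.142, within the -0.179 to 0.191 of differently numbered ones. These few correlations cannot tell whether a shared number stands for a shared pen. The replicate block again gave 0 genes past the adjusted threshold, also between tissues. Between tissues that block joined all libraries of the same number across both systems, so it did not pair liver and muscle within a bird. Log2 fold changes that changed sign with 1 library left out ranged over -0.066 to 0.38 for AHSG, -0.014 to 0.19 for ALB, -0.22 to 0.01 for C3, -0.20 to 0.11 for FGA, -0.11 to 0.22 for FGB, -0.062 to 0.26 for FGG, -0.26 to 0.25 for HMGCS1, -0.011 to 0.57 for IRF1, -0.29 to 0.11 for MARCO, -0.0074 to 3.83 for PCK1, -0.85 to 0.025 for PLIN1, -1.95 to 0.69 for SAA, -0.59 to 0.20 for TNNT3 and -0.21 to 0.33 for XDH. HMGCS1 was at 0.015 with RLE size factors, 0.015 with DESeq2, 0.0036 with no filter and 0.010 with all 20 libraries. FGB was at -0.047 with limma at both pseudocounts and -0.055 with the replicate block, FGG at -0.010 with limma at both pseudocounts and -0.013 with the block, and XDH at 0.037 with the block. Between DESeq2 and edgeR 23 named genes crossed the adjusted threshold. In 5 cases, leaving out 1 library moved a list median by more than the SD between livers. These cases fell on the methionine, taurine and one-carbon list, the lipoprotein list and the adipocyte markers. Depth limits the genes close to the limit of detection, where few counts stand behind a value.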
